A study of Mus musculus with 6 samples.

Results

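The clustered histone genes are the genes for the linker histone H1 and the core histones H2A, H2B, H3 and H4 that lie together in the Hist1, Hist2, Hist3 and Hist4 clusters of the mouse genome. Members were taken as every counted gene whose GENCODE M21 symbol begins with Hist1h, Hist2h, Hist3h or Hist4h, whatever its biotype. This gave 67 of the 41388 counted genes, made up of 6 H1, 20 H2A, 16 H2B, 12 H3 and 13 H4 genes. The annotation holds 70 such symbols, and Hist1h2bh, Hist1h2bm and Hist2h2bb were not analysed here. Of the 67 members, 64 were annotated as protein-coding and 3 as pseudogenes (Hist1h2al, Hist1h2aj and Hist3h2bb-ps). Only 13 members passed 1 CPM (reads scaled to the library's total) in at least 2 of the 6 samples and could be tested, and 9 passed it in all 6.

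The samples were primary joint chondrocytes from the cartilage of the femoral head, taken from male B6/129 mice aged 21 days and cultured for 2 days with no treatment. The groups were 3 periostin knockout samples (Postn-/-, homozygous for the Postn tm1Jmol allele in every cell of the animal) and 3 wild-type samples (wt). The mice were on the B6129SF2/J background, and littermates from crosses of heterozygotes were used. The question was how the gene expression of chondrocytes differs between the genotypes before any joint injury. RNA was amplified from 10 ng of total RNA, sequenced as 50-base single reads and counted only where a read aligned to a single place and a single gene.

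H2A, H2B, H3 and H4 form the protein core on which DNA is wound, and H1 binds the DNA that enters and leaves it. Most clustered histone genes have no introns and are expressed in step with DNA replication, when new chromatin has to be packed. Their mRNAs usually end in a short stem-loop in place of a poly(A) tail. The stem-loop is bound by SLBP, and the transcripts are made in nuclear bodies organised by NPAT and by FLASH, the product of Casp8ap2. Replacement histones such as H3.3 and H2A.Z are encoded outside the clusters, carry poly(A) tails and are made at all times. Cartilage chondrocytes divide slowly in tissue and can re-enter the cell cycle in culture.

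The stem-loop was searched for in the annotated transcripts because it sets these mRNAs apart from most others and because the library kit starts from poly(A) tails. The motif was GG, any 4 bases, TT, any 6 bases and CC, with the first 6 and last 6 bases able to pair around a loop of 4. It was found in 42 of the 67 members, against 0.830% of the 141767 annotated transcripts (0.889% on their reverse strand). In the sequences of GENCODE M21 transcripts below, the loop is in capitals and the stem in lower case.
The form in 24 members of the H1, H2A, H2B and H3 classes: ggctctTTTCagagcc
The form in 6 members, Hist1h1t, Hist1h2bk, Hist1h2bb, Hist1h3f, Hist1h3e and Hist1h3c: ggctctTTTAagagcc
The form in 7 H4 genes, Hist1h4d among them: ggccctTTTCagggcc
The form in the H4 genes Hist1h4i and Hist2h4: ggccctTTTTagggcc
The form in the H4 genes Hist1h4j and Hist1h4b: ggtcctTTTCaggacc
The form in the H2A gene Hist2h2ac: ggctctTTTTagagcc
The 11 H4 genes with a stem-loop thus carried words that no other class carried. No such word was found in Hist1h1b, Hist1h2bc or Hist2h2be, which says only that these letters are not in the annotated transcript.

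Among the 13 tested members, the log2 fold change farthest from 0 was that of Hist1h2al, a processed pseudogene of an H2A gene on chromosome 13 (GRCm38, 51202727 to 51203065, minus strand). It lies apart from the other 53 Hist1 members, which sit at 21715763 to 23934851 of the same chromosome. Its 339-base transcript aligned over its whole length to the 2 protein-coding genes Hist2h2aa1 and Hist2h2aa2 on chromosome 3 with 2 mismatches (99.4% identity). Counted from 1 at the 5′ end of Hist1h2al, with its base first, the substitutions were C120T and T216G. The 61 bases around each mismatch are printed because, within this transcript, only reads over such places can tell the genes apart, with the differing base in capitals (positions 90 to 150, then 186 to 246).
Hist1h2al, 90 to 150: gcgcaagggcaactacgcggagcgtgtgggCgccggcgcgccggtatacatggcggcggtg
Hist2h2aa1, same stretch: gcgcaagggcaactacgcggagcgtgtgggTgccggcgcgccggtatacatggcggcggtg
Hist1h2al, 186 to 246: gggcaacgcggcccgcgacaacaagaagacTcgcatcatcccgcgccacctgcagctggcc
Hist2h2aa1, same stretch: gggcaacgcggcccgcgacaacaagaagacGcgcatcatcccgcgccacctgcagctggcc
Of the 290 words of 50 bases in the Hist1h2al transcript, 196 also occurred in another gene and 94 did not. The authors counted 378 bases for it, of which 39 lie past the 3′ end of the annotated transcript and were not compared. The same 2 substitutions separated it from 3 other annotated transcripts of the Hist2 cluster, Gm20634 on the same strand and Gm20632 and Gm20633 on the opposite strand. Hist2h2ac followed with 6 mismatches, and the next H2A genes had at least 25.

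Promoters were read for 59 members from RefSeq (GRCm38.p6) as the 250 bases before the gene start, and 3 motifs were searched on both strands. The TATA box TATAAA was in 49.2% of the members' promoters against 12.4% of all 32851 promoters. The CCAAT box was in 81.4% against 33.8%, and it was in every H1, H2A and H2B promoter read (6 of 6, 18 of 18 and 13 of 13) but in only 3 of 12 H4 promoters. The octamer ATTTGCAT was in 18.6% against 1.601%, in 7 of 18 H2A and 4 of 13 H2B promoters and in none of the H1, H3 and H4 promoters. Divergent H2A and H2B genes share part of these windows, so their matches are not independent. The promoter of Hist1h2bc, the most counted core histone gene of the clusters, was not among the 59. The window of its neighbour Hist1h2ac reaches just over the start of Hist1h2bc. Below, the motifs are in capitals on either strand for Hist1h1b and Hist1h4d, both lower in the Postn-/- samples, and for Hist1h2ac.
Hist1h1b, chr13:21780626-21780875, minus strand: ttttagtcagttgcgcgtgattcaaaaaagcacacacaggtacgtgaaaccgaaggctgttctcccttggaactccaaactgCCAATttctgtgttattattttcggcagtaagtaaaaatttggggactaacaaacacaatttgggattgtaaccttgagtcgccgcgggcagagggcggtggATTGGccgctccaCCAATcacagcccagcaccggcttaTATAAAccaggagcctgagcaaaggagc
Hist1h4d, chr13:23581318-23581567, plus strand: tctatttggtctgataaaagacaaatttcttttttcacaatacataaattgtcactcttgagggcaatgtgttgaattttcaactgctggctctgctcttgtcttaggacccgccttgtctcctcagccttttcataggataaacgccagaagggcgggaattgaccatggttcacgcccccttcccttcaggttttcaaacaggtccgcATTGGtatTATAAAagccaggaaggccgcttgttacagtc
Hist1h2ac, chr13:23683960-23684209, minus strand: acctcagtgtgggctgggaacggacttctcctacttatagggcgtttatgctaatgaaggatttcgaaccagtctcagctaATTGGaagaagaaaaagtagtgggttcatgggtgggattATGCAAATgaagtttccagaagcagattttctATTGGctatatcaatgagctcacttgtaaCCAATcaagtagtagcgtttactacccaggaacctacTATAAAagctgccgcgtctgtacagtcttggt
A match is a description of the letters and not a measured binding site.

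Total counts per sample ran from 20587640 to 26572260, so that the upper limit a count of 0 allows, 3 counts, came to 0.113 to 0.146 CPM. These limits cover counting error only. Of 11 chondrocyte markers, all 11 passed the filter, 8 with a log2 fold change above 0 and 3 below (median 0.23). Among all tested genes, 49.2% were below 0, and 3.95% passed an unadjusted p of 0.05 with Postn-/- higher. They summed to 43018, 31804 and 41240 CPM in Postn-/- and 25200, 38100 and 31578 CPM in wt, with overlapping groups. The single one at an unadjusted p of 0.05 was the type II collagen gene Col2a1, at 15767, 13696 and 18081 CPM in Postn-/- and 8271, 11867 and 9567 CPM in wt after TMM normalization, the scaling for library size and composition used for every CPM from these markers on. These groups did not overlap, with Postn-/- higher (log2 fold change 0.68 ± 0.21, edgeR unadjusted p = 0.0125, adjusted p = 0.717). Its unadjusted p was 0.0522 without wt replicate 3, where no marker of the list passed. Without Postn-/- replicate 2, 3 markers passed, all higher, and 10 of the 11 were above 0. Without wt replicate 2, 2 passed, higher, and 1 passed in each remaining fit. The median of the list went from 0.0269 without wt replicate 1 to 0.44 without wt replicate 2. The part of these markers in the histone counts was not tested. Postn itself had 116, 105 and 119 reads in the Postn-/- samples and 263, 228 and 144 reads in the wt samples, with a log2 fold change of −0.91 (edgeR's quasi-likelihood test, unadjusted p = 0.00362, adjusted p = 0.717). The counts do not separate the part of the gene that the allele removes from the rest, so they bear only in part on the labels. In cell cycle markers wt replicate 1 stood apart from the other samples, and Postn-/- replicate 2 stood above the other 2 Postn-/- samples. The samples are separate samples by their labels, and the p-values set the difference between genotypes against the spread between samples of a genotype.

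The family took 0.0261% to 0.0376% of all counts in a sample, 44331 reads over the 6 samples. Hist1h1c, for linker histone H1.2, had 26113 of them and Hist1h2bc 12814, together 87.8%, and the other 65 members shared 5404 reads. By class, H1 held 60.8% of the family's reads, H2B 31.01%, H4 4.56%, H2A 2.83% and H3 0.799%. Per length, as RPKM from TMM-normalized CPM (CPM per kilobase of counted exon), Hist1h2bc averaged 125 and Hist1h1c 121, and their ranges over samples overlapped. Hist1h4d followed at 12.9 and Hist1h2al at 11.3, also with overlapping ranges, and the other 9 tested members lay between 0.331 (Hist2h2be) and 4.21 (Hist1h1e).

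**Figure D1:**
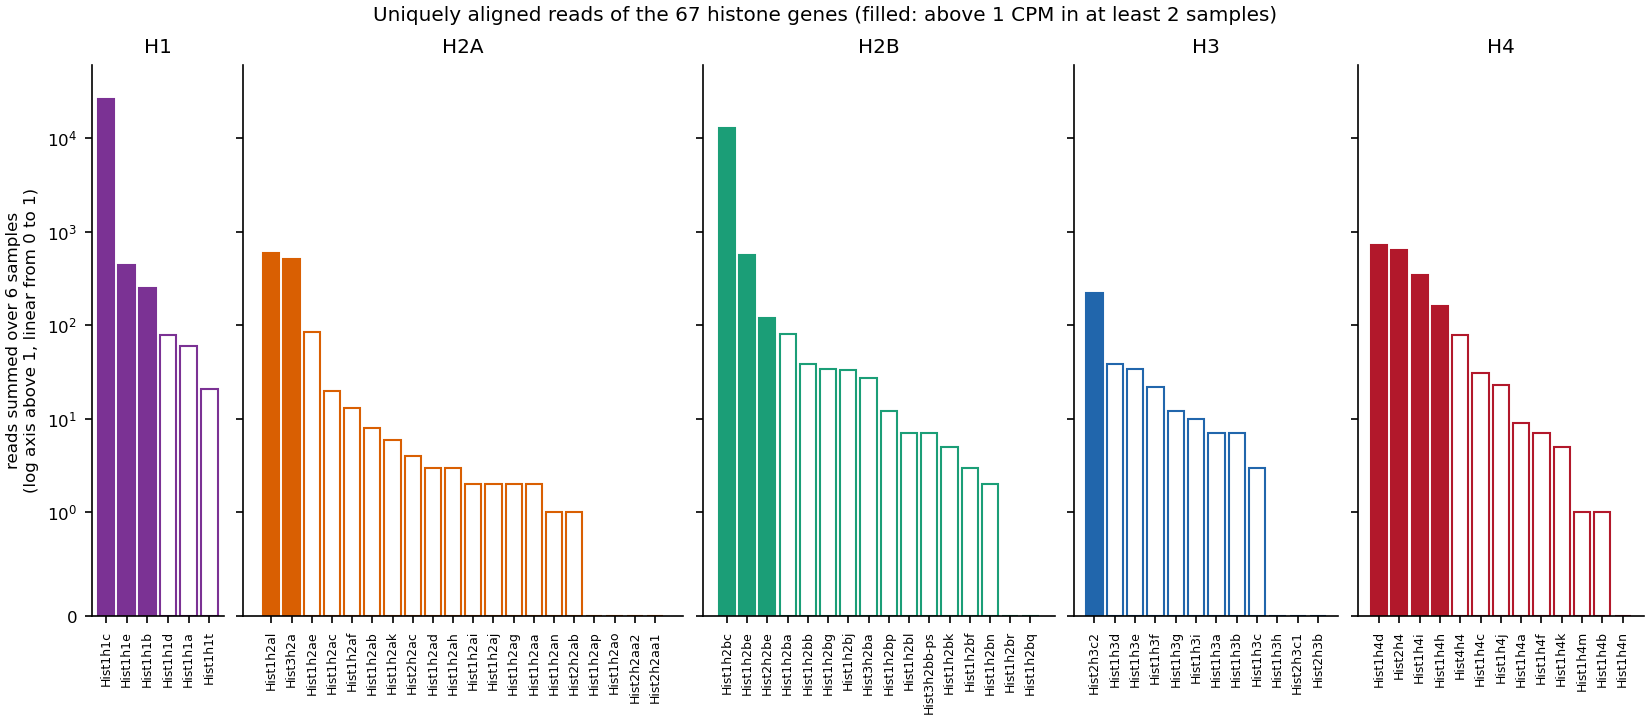
Reads of each of the 67 histone genes summed over the 6 samples, by class, on a y axis that is logarithmic above 1 and linear from 0 to 1; filled bars are the 13 genes above 1 CPM in at least 2 samples and open bars the other 54. Hist1h1c and Hist1h2bc hold 87.8% of the 44331 reads, and 10 genes have none.

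The 54 members that did not pass the filter had 84 reads or fewer each over the 6 samples. No read at all was counted in any sample for 10 members, namely 4 H2A, 2 H2B, 3 H3 and 1 H4 gene, and 13 more had 1 to 3 reads. In the 10 members without a read, 85.6% to 100% of the 50-base words in the counted bases also occurred in another gene (median 95.6%), against a median of 28.9% (0 to 67.6%) in the 13 tested members and 68.8% in the 54 untested ones. Since only reads placed at a single gene were counted, a count of 0 in these members is not a measure of no expression.

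**Figure D2:**
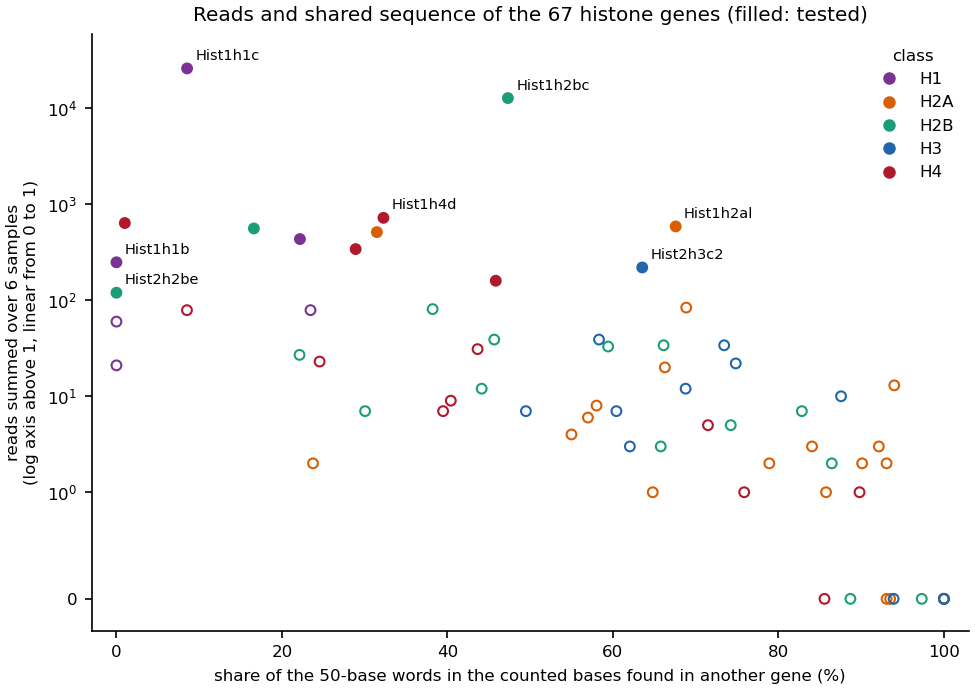
Share of the 50-base words in each gene's counted bases that occur in another gene (x axis, %) against its reads summed over 6 samples (y axis, logarithmic above 1, linear below), coloured by class and filled where tested. The 10 genes at 0 reads all lie at 85.6% or more shared words.

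Reads also differed with the 3′ end of the annotated transcript. Of the 21 members whose transcript went on for 100 bases or more after the stem-loop, 8 passed the filter and the median was 79 reads. Of the 21 members whose transcript ended within 100 bases of it, 1 passed and the median was 3 reads. The 25 members with no stem-loop found had 4 that passed and a median of 6 reads. Shared sequence moved with this division, with a median of 31.5% shared words over the counted bases in the first group, 65.8% in the second and 71.5% in the third, and its part was not tested. This grouping is by the annotated transcript, and the authors' counting did not cover all of it. In 9 of the first 21 members fewer than 100 bases after the stem-loop were counted, as in Hist1h1d with 744 counted bases of 7425. Grouped by counted bases instead, a choice made after the values were seen, 12 members had 100 or more after the stem-loop, of which 6 passed with a median of 149.5 reads and 26.7% shared words. The other 30 had 3 that passed, a median of 7 reads and 61.2% shared words. A poly(A) signal (AATAAA or ATTAAA) in the last 40 bases was found in 17 members, of which 7 passed with a median of 79 reads. Of the other 50, 6 passed with a median of 7. Shared words had a median of 28.9% in the 17 and 66.9% in the 50, and their part was not tested.

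Head-to-head pairs of an H2A and an H2B gene numbered 13, with 173 to 306 bases between their starts. The H2B gene had more reads in 7 pairs, the H2A gene in 3, and 3 pairs were equal. The widest split was between Hist1h2bc with 12814 reads and Hist1h2ac with 20, a 641-fold difference with 275 bases between their starts. The 250-base window of Hist1h2ac printed above overlaps these bases but does not cover all of them. Counting covered 736 bases of Hist1h2bc, whose longest GENCODE M21 transcript has 1156, and 476 of the 2482 bases of Hist1h2ac. Over the counted bases, 47.3% of the words of Hist1h2bc and 66.3% of those of Hist1h2ac were shared, and the part of either in the split was not tested. Hist2h2be had 120 reads against 4 for Hist2h2ac, of whose words 55.0% were shared. The opposite order was found on chromosome 11, where Hist3h2a had 514 reads and the pseudogene Hist3h2bb-ps 7.

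Between the genotypes, no clustered histone gene passed an adjusted p of 0.05 in edgeR's quasi-likelihood test, where 2 of the 14533 tested genes did (0.0138%), nor did any in DESeq2's Wald test or in limma's voom fits. At an unadjusted p of 0.05, 3 of the 13 tested members passed, Hist1h4d, Hist1h1b and Hist2h2be, against 6.3% of all tested genes. All 3 were lower in Postn-/-, the direction of 2.35% of all tested genes at that threshold, and none was higher (3.95% of all tested genes). The log2 fold change, Postn-/- over wt, was below 0 in 7 members and above 0 in 6, with a median of −0.05 against 0.00 for all tested genes (values after ± a log2 fold change are standard errors). Groups did not overlap in 4 of the 13 members, 3 lower and 1 higher, against 13.6% of all tested genes (6.57% lower and 7.03% higher). Hist2h2be is in both counts and entered the test only through wt replicates 1 and 2, since every Postn-/- sample lay below 1 CPM, so the filter favoured its difference. Every other tested member was above 1 CPM in at least 1 sample of both genotypes. In Hist1h1b and Hist1h4h, however, Postn-/- replicate 2 was the only Postn-/- sample above it (1.55 and 1.505 CPM), while every wt sample was. Their wt samples alone met the filter, and their Postn-/- samples alone did not. Among the 12 members other than Hist2h2be, 2 passed the unadjusted threshold (5.85% of the 14229 genes above 1 CPM in both genotypes). In 3 of the 12 the groups did not overlap (13.1%). Hist1h1b is in both of these counts, so they are not free of the filter either.

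**Figure D3:**
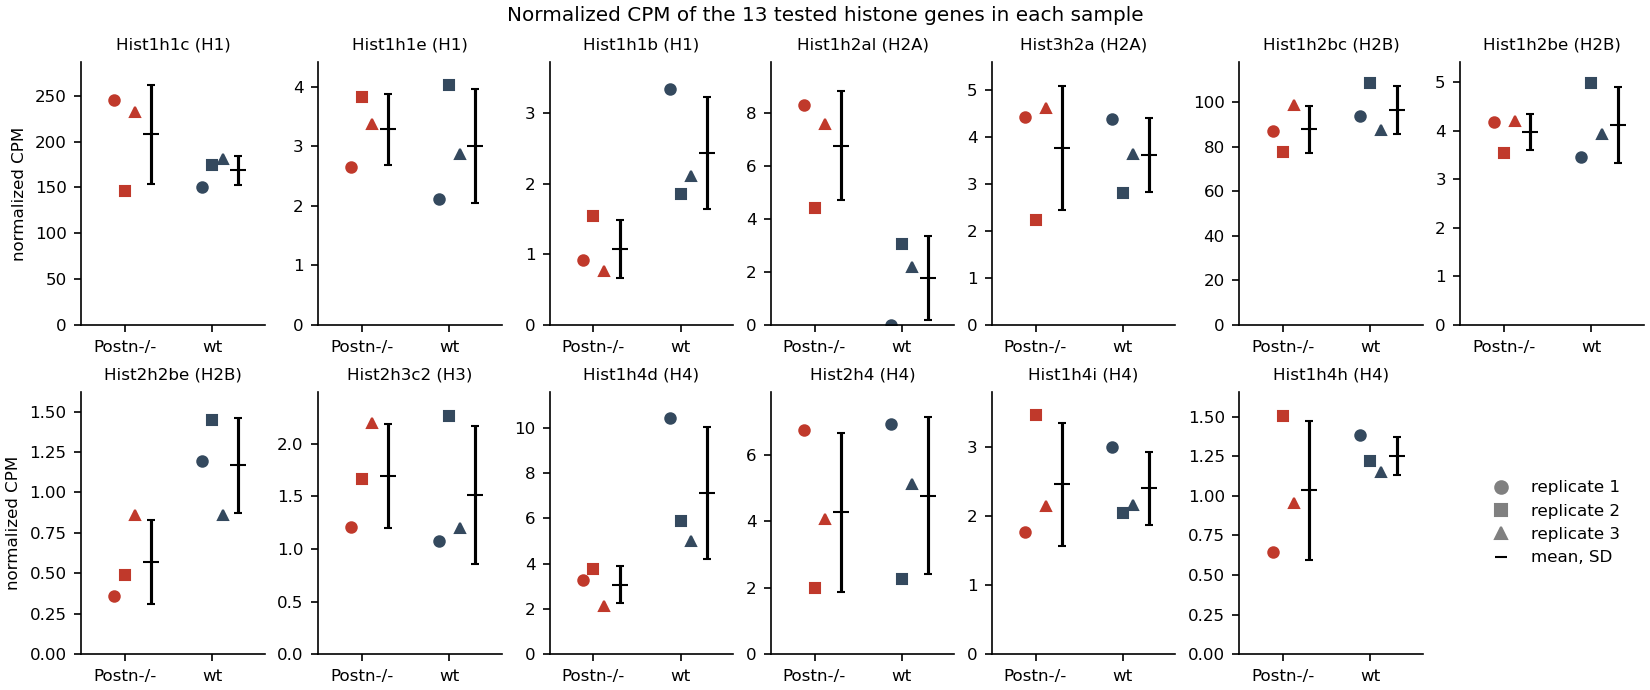
Normalized CPM of the 13 tested histone genes in each sample (red, Postn-/-; dark, wt; circle, square and triangle for replicates 1, 2 and 3; bars are mean and SD, n = 3). The groups separate without overlap in Hist1h1b, Hist2h2be and Hist1h4d, lower in Postn-/-, and in Hist1h2al, higher in Postn-/-.

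The linker histones were led by Hist1h1c, on chromosome 13 (23738808 to 23740367). Its level in the Postn-/- samples was 245, 146 and 232 CPM, against 150, 175 and 181 CPM in wt. Postn-/- replicates 1 and 3 lay above every wt sample and replicate 2 below every one, so the groups overlapped. The log2 fold change was 0.30 ± 0.20 (unadjusted p = 0.162, adjusted p = 0.730 by edgeR). Without Postn-/- replicate 2, the Postn-/- sample with the highest cell cycle markers, it was 0.50 (unadjusted p = 0.00505, adjusted p = 0.611). Without Postn-/- replicate 1 it was 0.17 (unadjusted p = 0.450, adjusted p = 0.844).

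Hist1h1b, the gene for linker histone H1.5 (chromosome 13, 21779883 to 21780625, minus strand), had 23, 38 and 16 reads in the Postn-/- samples and 87, 41 and 44 reads in the wt samples. This came to 0.924, 1.55 and 0.762 CPM against 3.34, 1.85 and 2.11 CPM, or 1.08 ± 0.413 against 2.44 ± 0.797 (mean ± SD, n = 3 each). The groups did not overlap, with Postn-/- lower, and wt replicate 1 was the highest of all. The log2 fold change was −1.17 ± 0.36 (unadjusted p = 0.0124, adjusted p = 0.717 by edgeR), and −0.87 (unadjusted p = 0.0463) without wt replicate 1. None of its 50-base words occurred in another gene. Hist1h1e, for H1.4, was at 2.65, 3.82 and 3.38 CPM against 2.11, 4.03 and 2.88 CPM, with overlapping groups and a log2 fold change of 0.13 (unadjusted p = 0.662).

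Summed over its 6 members, the H1 class was at 250, 152 and 237 CPM in Postn-/- and 157, 182 and 187 CPM in wt. The ratio of this sum was 1.22 with overlapping groups, 1.39 without Postn-/- replicate 2 and 1.11 without Postn-/- replicate 1. Hist1h1c makes up nearly the whole of this sum. Without it, the other 5 H1 genes summed to 4.90, 6.22 and 4.86 CPM in Postn-/- and 6.81, 7.06 and 6.42 CPM in wt, a ratio of 0.788, with no overlap between the groups. The choice to leave it out was made after the values were seen.

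In the H2A class, Hist1h2al had 207, 109 and 159 reads in the Postn-/- samples and 0, 68 and 46 reads in the wt samples. It was at 8.32, 4.43 and 7.58 CPM against 0, 3.08 and 2.20 CPM, or 6.78 ± 2.06 against 1.76 ± 1.59 (mean ± SD, n = 3 each). All 3 Postn-/- samples lay above all 3 wt samples. In wt replicate 1, the deepest library, no read was counted, which allows up to 0.113 CPM of its total counts, before TMM normalization. The log2 fold change was 1.96 ± 0.89 (unadjusted p = 0.0587, adjusted p = 0.717 by edgeR). Without wt replicate 1 it was 1.36 ± 0.34 (unadjusted p = 0.00519, adjusted p = 0.833), and it was 2.68 (unadjusted p = 0.0357) without wt replicate 2. Over the alternatives run it stayed between 1.36 and 3.00, with unadjusted p from 0.000605 to 0.217 and adjusted p from 0.206 to 0.983.

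The near copies of Hist1h2al were read beside it. Hist2h2aa1 and Hist2h2aa2, the coding genes printed beside it, had 0 reads in every sample. All of their 50-base words occur in another gene, and all of their counted bases are overlapped by other annotated genes. The overlapping transcripts on the opposite strand did receive reads. Use of strand in the counting is not given in the sources used here, and without strand the reads of overlapping genes cannot be told apart. Gm20632 had 181, 126 and 114 reads in Postn-/- and 132, 147 and 127 in wt, with overlapping groups and a log2 fold change of 0.00 (edgeR unadjusted p = 0.987). Gm20633 had 180, 87 and 89 reads against 85, 87 and 73, a log2 fold change of 0.49 (unadjusted p = 0.136). Neither showed the wt replicate 1 zero of Hist1h2al. Gm20628, which overlaps the H3 gene Hist2h3b in the same Hist2 cluster, had 63, 31 and 56 reads in Postn-/- and 8, 17 and 23 in wt, without overlap, with a log2 fold change of 1.58 ± 0.48 (unadjusted p = 0.0113, adjusted p = 0.717). These 3 genes are not members, and they were looked at after the values of Hist1h2al were seen. Whether reads of one gene were counted on another was not tested.

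Hist3h2a, a polyadenylation-signal-bearing H2A gene on chromosome 11, was at 4.42, 2.24 and 4.62 CPM in Postn-/- and 4.38, 2.81 and 3.64 CPM in wt. The groups overlapped, with a log2 fold change of 0.05 (unadjusted p = 0.871 by edgeR), and 33.0% of its counted bases are overlapped by Trim17, which itself had 4 to 17 reads a sample. The H2A sum over 20 members was 13.6, 7.85 and 12.3 CPM in Postn-/- and 6.11, 7.19 and 6.996 CPM in wt, a ratio of 1.66 without overlap. This rested on the pseudogene. Without Hist1h2al the sum was 5.26, 3.42 and 4.77 CPM against 6.11, 4.12 and 4.79 CPM, a ratio of 0.895 with overlapping groups (1.01 without wt replicate 1).

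**Figure D4:**
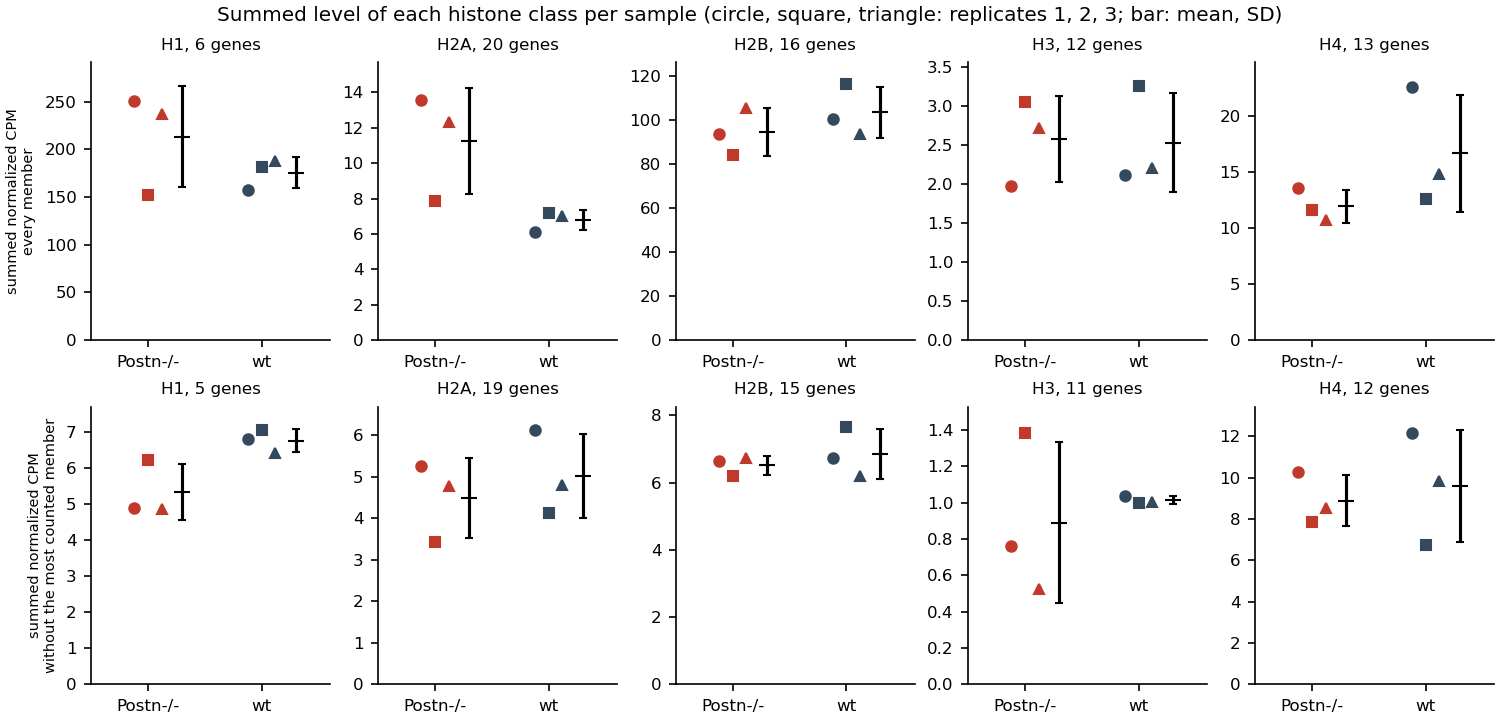
Summed normalized CPM of each histone class in each sample, over every member (upper row) and without the class's most counted member (lower row); circle, square and triangle are replicates 1, 2 and 3 and bars are mean and SD (n = 3). The H2A ratio goes from 1.66 to 0.895 without Hist1h2al and the H1 ratio from 1.22 to 0.788 without Hist1h1c.

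Among the H2B genes, Hist1h2bc (chromosome 13, 23684199 to 23692908) had levels of 87.0, 77.7 and 98.8 CPM in Postn-/- and of 93.7, 109 and 87.6 CPM in wt. The groups overlapped, and the log2 fold change was −0.14 ± 0.13 (unadjusted p = 0.317 by edgeR). Hist2h2be on chromosome 3 (96221119 to 96223738) had only 9, 12 and 18 reads in Postn-/- and 31, 32 and 18 reads in wt. This was 0.362, 0.488 and 0.858 CPM against 1.19, 1.45 and 0.863 CPM, so the groups did not overlap but Postn-/- and wt replicates 3 were nearly equal. Its log2 fold change was −1.05 ± 0.39 (unadjusted p = 0.0286, adjusted p = 0.717 by edgeR). The unadjusted p was 0.0890 without Postn-/- replicate 1 and 0.0835 without Postn-/- replicate 2, and without wt replicate 1 or 2 the gene no longer passed the CPM filter. None of its 50-base words was shared. Hist1h2be was at 3.46 to 4.98 CPM over all samples with a log2 fold change of −0.05 (unadjusted p = 0.815). The H2B sum of 16 genes was 93.6, 83.9 and 106 CPM in Postn-/- and 100, 116 and 93.8 CPM in wt, a ratio of 0.911 with overlapping groups.

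H3 was the class with the fewest reads, 354 over 12 genes. Its single tested member, Hist2h3c2, was at 1.21, 1.67 and 2.19 CPM in Postn-/- and 1.08, 2.26 and 1.20 CPM in wt, with overlapping groups and a log2 fold change of 0.16 ± 0.37 (unadjusted p = 0.686 by edgeR). Of its 50-base words, 63.5% occurred in another gene. The class summed to 1.97, 3.05 and 2.72 CPM against 2.11, 3.26 and 2.20 CPM, a ratio of 1.02.

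In the H4 class, Hist1h4d (chromosome 13, 23581598 to 23582735, plus strand) had 82, 92 and 45 reads in Postn-/- and 271, 130 and 104 reads in wt. It was at 3.30, 3.74 and 2.14 CPM against 10.4, 5.88 and 4.98 CPM, or 3.06 ± 0.824 against 7.09 ± 2.91 (mean ± SD, n = 3 each). The groups did not overlap, with Postn-/- lower, and wt replicate 1 was again the highest. The log2 fold change was −1.21 ± 0.34 (unadjusted p = 0.00754, adjusted p = 0.717 by edgeR), the lowest of the 13 members. It was −0.82 ± 0.28 (unadjusted p = 0.0224) without wt replicate 1. The authors' counting covered 393 bases of the gene, where the GENCODE M21 transcript has 1138. Over the counted bases, 32.3% of its words were shared.

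The other 3 tested H4 genes did not separate the groups. Hist2h4 on chromosome 3 was at 6.75, 1.99 and 4.05 CPM in Postn-/- and 6.92, 2.26 and 5.13 CPM in wt, a log2 fold change of −0.16 ± 0.51 (unadjusted p = 0.754 by edgeR). Replicates 1 were high and replicates 2 low in both genotypes. Hist1h4i ranged from 1.77 to 3.46 CPM with a log2 fold change of 0.03 (unadjusted p = 0.921), and Hist1h4h from 0.643 to 1.505 CPM with −0.28 (unadjusted p = 0.452). The log2 fold change of Hist1h4h was −0.0211 without Postn-/- replicate 1 and −0.66 without Postn-/- replicate 2. The class summed over 13 genes to 13.5, 11.6 and 10.7 CPM in Postn-/- and 22.6, 12.6 and 14.8 CPM in wt, a ratio of 0.716 (0.870 without wt replicate 1). Without Hist1h4d, left out after the values were seen, it was 0.927. The groups overlapped, since Postn-/- replicate 1 lay above wt replicate 2.

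When the 3 pseudogenes, Hist1h1c and Hist1h2bc were left out, a choice made after the values were seen, the remaining 62 genes summed to 32.3, 30.3 and 29.7 CPM in Postn-/- and 44.2, 34.7 and 34.4 CPM in wt, a ratio of 0.816 without overlap. The ratio was 0.892 without wt replicate 1. The 54 untested members alone summed to 6.11, 6.47 and 4.43 CPM against 7.04, 5.93 and 6.37 CPM, a ratio of 0.880 with overlapping groups, from 851 reads in all.

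Histones made outside the clusters were read from a list of 11 replacement histone genes, of which 10 passed the filter. None of the 10 passed an unadjusted p of 0.05 in either direction, 4 were higher and 6 lower, and the median log2 fold change was −0.08. With a sample left out, 3 genes named here after their values were seen passed that threshold. H1f0 was higher without Postn-/- replicate 2 or wt replicate 1, H2afj was higher without Postn-/- replicate 1 or wt replicate 2, and Cenpa was lower without Postn-/- replicate 2. H3f3b, which encodes H3.3, was at 398, 356 and 424 CPM in Postn-/- and 417, 393 and 422 CPM in wt, a log2 fold change of −0.07 (edgeR unadjusted p = 0.570). Per length its RPKM from TMM-normalized CPM averaged 135, close to the 125 of Hist1h2bc, and that of the H1.0 gene H1f0 averaged 34.1. H3f3a, the other H3.3 gene, had a log2 fold change of −0.10 (unadjusted p = 0.570), the H2A.Z gene H2afz −0.24 (unadjusted p = 0.242) and the H2A.X gene H2afx 0.16 (unadjusted p = 0.464).

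The genes that make and process histone mRNA were read from a list of 14, of which 13 were tested. None passed an unadjusted p of 0.05, 4 were higher and 9 lower, with a median log2 fold change of −0.04. Without wt replicate 2, Npat (lower) and Sympk (higher, named after its values were seen) passed it. Slbp, the stem-loop binding protein, was at 51.5, 61.0 and 52.5 CPM in Postn-/- and 64.1, 48.5 and 55.3 CPM in wt, with overlapping groups and a log2 fold change of −0.03 (edgeR unadjusted p = 0.853). Npat had a log2 fold change of −0.27 (unadjusted p = 0.0589) and Casp8ap2 −0.32 (unadjusted p = 0.103), the latter −0.12 without wt replicate 1.

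Of 23 histone chaperone genes, all tested, 21 had a log2 fold change below 0, against 49.2% of all tested genes, with a median of −0.20. One passed an unadjusted p of 0.05, near the 2.35% of all tested genes called lower. This was Anp32e, which removes H2A.Z from nucleosomes, at 161, 156 and 133 CPM in Postn-/- and 202, 188 and 169 CPM in wt. Its groups did not overlap, and the log2 fold change was −0.31 ± 0.12 (unadjusted p = 0.0317, adjusted p = 0.717 by edgeR). Without wt replicate 1, 18 of the 23 were below 0 (48.9% of all genes in that fit), the median was −0.11 and none passed the unadjusted threshold. With each sample left out in turn, 0 to 4 of the 23 passed it, all lower, the 4 without wt replicate 2. Anp32e was not among them there, nor without wt replicate 1 or Postn-/- replicate 3.

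Because the clustered genes are expressed with DNA replication, S phase and G2/M marker lists were read beside them. Slbp, Casp8ap2 and the chaperone genes Nasp and Chaf1b are also S phase markers. Anp32e, Cenpa and the chaperone gene Hjurp are also G2/M markers. The marker lists are therefore not independent of the lists above. Of 43 S phase markers, all tested, 42 had a log2 fold change below 0 (median −0.51), against 49.2% of all tested genes, and 4 passed an unadjusted p of 0.05, all lower in Postn-/-, against 2.35%. Their summed level was 1281, 1746 and 1121 CPM in Postn-/- and 2780, 1391 and 1605 CPM in wt, with overlapping groups. Of 54 G2/M markers, 54 were below 0 (median −0.62) and 4 passed, and their sums were 1870, 2605 and 1594 CPM against 3639, 2366 and 2367 CPM. These lists depended on single samples. Without wt replicate 1, 35 of the 43 and 49 of the 54 were below 0, the medians were −0.16 and −0.30 and no marker of either list passed, where 1.96% of all genes in that fit were called lower. Without Postn-/- replicate 2 the medians were −0.70 and −1.01, and 19 S phase and 43 G2/M markers passed the unadjusted threshold, where 3.81% of all genes in that fit were called lower. Without wt replicate 2, 26 S phase and 14 G2/M markers passed it (3.45% of all genes), and 43 and 53 were below 0 (48.5% of all genes). No marker of either list passed without Postn-/- replicate 3, where the medians were −0.37 and −0.40. Without Postn-/- replicate 1, 0 and 1 passed (medians −0.46 and −0.49), and without wt replicate 3, 5 and 8 passed.

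Set beside these sums, Hist1h1b and Hist1h4d were highest in wt replicate 1, the sample with the highest S phase sum, and lowest in Postn-/- replicate 3, the sample with the lowest. Yet Postn-/- replicate 2 had a higher S phase sum than wt replicates 2 and 3 and lower levels of both genes than either. Hist1h1c ran the other way, with its highest values in Postn-/- replicates 1 and 3. The part of cell cycle activity in the differences of the histone genes was not tested, and in bulk samples fewer cells in S phase and less histone mRNA per cell cannot be told apart.

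**Figure D5:**
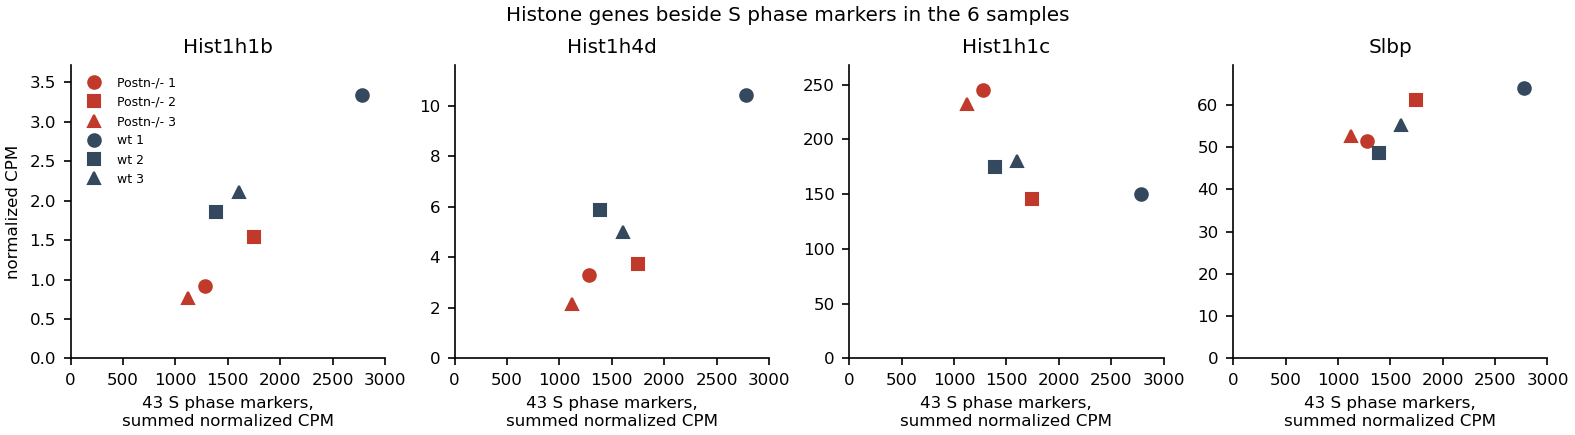
Summed normalized CPM of 43 S phase markers (x axis) against the normalized CPM of Hist1h1b, Hist1h4d, Hist1h1c and Slbp (y axes) in each of the 6 samples. Slbp is itself among the 43 markers. Wt replicate 1 has the highest S phase sum (2780 CPM) and the highest Hist1h1b and Hist1h4d, while Postn-/- replicate 2, second highest at 1746 CPM, lies below the other wt samples in both genes.

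Markers of other cell types that the cultures could hold were also read. The 6 leukocyte and erythroid markers, of which 3 passed the filter, summed to 48.1, 26.8 and 38.0 CPM in Postn-/- and 27.4, 17.8 and 31.8 CPM in wt, and the 5 endothelial markers, of which 3 passed, to 5.99, 6.14 and 9.48 CPM against 4.19, 4.796 and 8.10 CPM. Osteoblast markers summed to 981 to 1860 CPM in Postn-/- and 758 to 3394 CPM in wt, and fibroblast markers to 1955 to 3944 CPM and 2555 to 4125 CPM. The 5 osteoclast markers summed to 347 to 457 CPM and 315 to 417 CPM. No marker of these lists was at 0 in every sample. All 5 sums overlapped between the genotypes. The 3 tested leukocyte and erythroid markers (median log2 fold change 0.55) and the 3 tested endothelial markers (median 0.45) were all above 0. None passed an unadjusted p of 0.05. In the fits without wt replicate 1 and without wt replicate 3, 1 leukocyte and erythroid marker passed it, higher. The median of this list was 0.22 without wt replicate 2, and 1 marker was below 0 without Postn-/- replicate 1. Among the endothelial markers, 1 was below 0 without wt replicate 1, wt replicate 2 or Postn-/- replicate 3, the last with a median of 0.0931. Without wt replicate 1, 1 osteoblast marker passed the unadjusted threshold, lower in Postn-/- (median of the list −0.30). Without Postn-/- replicate 3, 1 fibroblast marker passed it, higher in Postn-/- (median of the list 0.24). The part of these cell types in the histone counts was not tested.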

How the data were processed

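Libraries from 3 Postn-/- and 3 wt samples were made by the authors with a SMARTer Ultra Low kit and read as 50-base single ends. According to the study's methods, reads were aligned to Ensembl release 76 with STAR 2.0.4b, and uniquely aligned unambiguous reads were counted per gene with featureCounts 1.4.5. The authors deposited, per sample, raw counts, CPM (each count over the total of its sample) and RPKM (CPM per kilobase of counted exon). The submitters' processing notes also name mm9, but 99.8% of the matched genes' coordinates overlap those of GENCODE M21 (GRCm38), which was used for symbols (40340 of 41388 identifiers matched).

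The members and gene lists were chosen with earlier results of these data known. In R 4.3.3, edgeR 4.0.16 compared Postn-/- with wt on the deposited counts (TMM, quasi-likelihood test, no covariates, Benjamini-Hochberg adjustment over 14533 genes) after a filter of more than 1 CPM in at least 2 samples and without 355 rRNA genes. Standard errors were derived from the fold change and its F statistic (its size divided by the root of F). The script was tested on simulated data. Named genes were all tested members, Postn, genes of the replacement histone, histone mRNA and chaperone lists that passed 0.05 unadjusted, and 7 genes set by name. H1f0, H2afj, Cenpa, Sympk, Col2a1 and the transcripts beside Hist1h2al were named after their values were seen. S phase and G2/M markers came from Seurat 5.3.0. Class values are sums of TMM-normalized CPM over members, with no test. A shared word is a 50-base stretch of a gene's transcripts, within its counted bases, that also occurs on either strand in a transcript of another gene. No 2 samples were the same library (chi-square per degree of freedom 36.5 to 110 over 15 pairs). Alternatives were DESeq2 1.42.0, voomWithQualityWeights in limma 3.58.1 without and with surrogate variables (sva 3.50.0), 2 other normalizations, 2 other filters, a replicate block, other choices of members and leaving out each sample.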

Additional observations from a re-analysis of the deposited data

How the results depend on the processing

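No clustered histone gene reached an adjusted p of 0.05 under any alternative run, with the lowest adjusted p of a member between 0.206 and 0.983. Hist1h1b and Hist1h4d stayed lower in Postn-/- in every fit that tested them, and Hist1h2al stayed higher. The genes called among all genes at an adjusted p of 0.05 (2) numbered 10 with DESeq2's Wald test, 9 with no filter, 1 with voomWithQualityWeights, 1 with upper quartile normalization, 0 with a filter of more than 1 CPM in all 6 samples and 1 to 2 with a sample left out. At an unadjusted p of 0.05, the 916 genes became 1882 with surrogate variables, 1797 with no filter and 425 to 1257 with a sample left out. The 3 members at that threshold became 5 with surrogate variables (Hist1h1c and Hist1h2al added), 6 of 57 with no filter (Hist1h2al, Hist1h2ae at a log2 fold change of −1.29 and Hist1h2bb at 1.26 added), 1 of 9 with the filter in all 6 samples (Hist1h4d) and 2 to 3 with a sample left out. With a sample left out, Hist1h1b and Hist1h4d passed each time. Hist1h2al passed, higher, without wt replicate 1 or 2, and Hist1h1c, higher, without Postn-/- replicate 2. Hist2h2be passed only without replicate 3 of either genotype. It did not pass with voomWithQualityWeights, where Hist1h2al did. The cause of these differences was not tested, apart from the number of genes that a filter leaves.

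The H2A ratio of 1.66 was 0.900 over protein-coding members, and also without pseudogenes, Hist1h1c and Hist1h2bc, and 0.895 without the most counted member. The H1 ratio of 1.22 was 0.788 under both of the last choices, which were made after seeing the data. H2B, H3 and H4 ratios moved by less than 1 SD of the ratio, taken from both groups' SDs together, although the H4 ratio of 0.716 was 0.927 without Hist1h4d. Signs of small differences turned. H3f3a was at 0.01 with voomWithQualityWeights and Slbp at 0.0164 with surrogate variables. With a sample left out, log2 fold changes spanned −0.12 to 0.32 for Hist3h2a, −0.12 to 0.0829 for Slbp, −0.17 to 0.10 for Hist1h2be, −0.67 to 0.21 for Hist2h4, −0.30 to 0.23 for Hist1h4i, −0.0675 to 0.33 for H2afx, −0.0709 to 0.56 for Hist2h3c2, −0.0723 to 0.40 for Hist1h1e and −0.21 to 0.0098 for H3f3a.

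With the replicate number as a block, 1 gene passed the adjusted threshold and 1188 the unadjusted one, and the 3 members at that threshold were the same genes. Deviations of same-numbered samples correlated at 0.0824 to 0.155 and those of other pairs at −0.130 to 0.0143, so each sample correlated best with its own number, a hint from the data and not from the design, and the samples were not taken as paired. Depth limits the members outside Hist1h1c and Hist1h2bc, which shared 5404 reads.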
